A study of Mus musculus with 26 samples.

Results

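Epididymal fat of obese mice was separated after collagenase digestion into the cells that float, the adipocytes, and the cells that sediment, the stromal vascular cells (SVCs), and polyadenylated RNA of each fraction was sequenced. The 5 libraries described here are the 3 adipocyte and the 2 SVC columns of the count tables that name mice on a high fat diet (HFD), of 15 columns that name a group. The labels list 3 SVC replicates for these mice and 3 for lean mice, so not every replicate has a column that names its group. HFD mice were male wild type C57BL/6J mice that ate a diet of 60% fat for 12 weeks from 9 to 10 weeks of age. SW mice of the same strain ate it for 9 weeks and then a 10% fat diet (LFD) for 3 weeks, and LFD mice ate the 10% fat diet throughout. SW and LFD mice are used only to set the fraction difference of HFD mice beside that of other states. The numbers in the column names are in no label, so a floating and a sedimented library could not be matched to the same mouse, and the p-values measure the spread between these libraries. The labels give paired-end runs for every HFD adipocyte replicate and single runs alone for some HFD SVC replicates. SW adipocytes have paired-end runs only, and each SW SVC replicate has both kinds. Read layout thus cannot be told apart from fraction, and its part in the results was not tested.

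Buoyancy, not a surface marker, separates the fractions. Adipocytes float because of their lipid droplet, store and release fatty acids, and secrete leptin and adiponectin, whereas the sediment holds macrophages, lymphocytes, mast cells, fibroblast-like progenitors and vessel cells. In obese visceral fat, macrophages gather around dying adipocytes and take up lipid. These lipid-associated macrophages are known for Trem2, Gpnmb and lysosomal enzymes, and resident perivascular macrophages for Lyve1, Cd163 and Mrc1. Fibroblasts and progenitors make the collagens that surround adipocytes and vessels.

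The adipocyte libraries, numbered 401, 402 and 403, hold 12223677, 23725647 and 22162837 estimated counts, and the SVC libraries, numbered 212 and 411, hold 13106471 and 17818059. The SVC libraries stand apart from each other. Of 14743 genes tested, 498 (3.38%) differed over 4-fold in level between them, against 21 to 38 genes between pairs of adipocyte libraries. Across genes, library 212 had a Pearson r of 0.904 with library 411 on log2 levels. With adipocyte libraries 401, 402 and 403 its r was 0.911, 0.887 and 0.908. Mitochondrial transcripts made up 6.34% of library 212 and 33.5% of library 411, and 8.40% to 11.8% of the adipocyte libraries. Hemoglobin transcripts made up 0.287% and 3.09%, against 0.0614% to 0.0822%, although the sediment had been treated to lyse red cells. In SW and LFD SVCs hemoglobin made up 2.76% to 5.15% and mitochondrial transcripts 4.36% to 9.54%. The summed level of 12 immediate early and heat shock genes was 11050.2 CPM (counts scaled to a common library size) in library 212, 1365 in library 411 and 1453 to 2609 in the adipocyte libraries. On the scale of all 15 libraries, the 30 adipocyte markers used below summed to 8533 and 5338 CPM in SVC libraries 212 and 411. In SW and LFD SVCs they summed to 2647 to 3083 CPM. The part of these differences in the results, the shared genes included, was not tested, and SVC values are therefore given for each library.

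Genes of fat storage marked the floating fraction. In all, 1090 of the 14743 genes (7.39%) were higher in adipocytes and 940 (6.38%) were higher in SVCs by edgeR's quasi-likelihood test, with p-values adjusted by Benjamini-Hochberg over all genes tested and a threshold of 0.05. All adipocyte libraries lay above both SVC libraries for 29.3% of the genes and below both for 25.9%. The balance of the calls moved with the scaling, to 962 higher and 1304 lower with upper-quartile factors and to 817 and 448 with a correction for GC content. The counts also turned on single libraries. They were 3998 and 4025 without SVC library 212 and 1472 and 1541 without library 411, in both cases with the remaining SVC library assumed to vary like the adipocyte libraries. Without adipocyte libraries 401, 402 or 403 they were 330 and 27, 74 and 2, and 338 and 103. Values without each library were computed for 38 named genes past the threshold. Of the 15 that were higher in adipocytes, 13, 8 and 13 still passed without adipocyte library 401, 402 or 403. Of the 23 that were higher in SVCs, 1, 0 and 2 did.

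Of 30 adipocyte marker genes, 27 were higher in adipocytes (background 7.39%) and 0 in SVCs. Their median log2 difference was 3.99, where the median of all genes tested was 0.00065. In bulk RNA, fewer cells of a type and less of an RNA per cell cannot be told apart. Lep (ENSMUSG00000059201), which encodes the satiety hormone leptin, was at 970.0, 2307 and 1564 CPM in adipocyte libraries 401, 402 and 403 and at 21.6 and 35.1 CPM in SVC libraries 212 and 411, the order kept below. The groups did not overlap, and the log2 difference was 5.83 (SE 0.57, adjusted p = 0.0084 by edgeR), or 56.9-fold. Adipoq (ENSMUSG00000022878), which encodes adiponectin, was at 751, 1428 and 814 CPM against 14.3 and 38.8 CPM (log2 difference 5.23, SE 0.63, adjusted p = 0.0102). Plin1, the main coat protein of the adipocyte lipid droplet, was at 202, 408 and 286 CPM against 6.24 and 17.1 CPM (log2 difference 4.69, SE 0.59, adjusted p = 0.0118). For each of these genes adipocyte library 402 was the highest and SVC library 212 the lowest, and no SVC value was 0. Without adipocyte library 402 Lep passed (adjusted p = 0.044 by edgeR), and Adipoq and Plin1 did not, with log2 differences of 4.87 and 4.38 (adjusted p = 0.0575 and 0.0646).

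Fabp4, a fatty acid carrier of adipocytes that macrophages also make, was at 7037, 10444 and 8733 CPM in adipocytes and at 1187 and 661 CPM in SVCs (log2 difference 3.24, SE 0.45, adjusted p = 0.015), and without library 402 its log2 difference was 3.08 (adjusted p = 0.0959 by edgeR). The 3 markers that did not pass were Lpl, Cd36 and Cebpa. Lpl, the lipase that frees fatty acids from lipoproteins, was at 6567, 7368 and 7293 CPM against 4098 and 1956 CPM (adjusted p = 0.0885 by edgeR). Cd36, a fatty acid and scavenger receptor, was at 6153, 5269 and 5524 CPM against 2992 and 1754 CPM (adjusted p = 0.0645). Neither gene overlapped between the fractions. Cebpa, a transcription factor of adipocytes and of myeloid cells, did overlap, at 209, 329 and 277 CPM against 146 and 294 CPM.

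Enzymes that build and release triglyceride showed the same direction. In the list of lipogenesis and triglyceride synthesis, 14 of 16 genes were higher in adipocytes (background 7.39%), with a median log2 difference of 2.74. Scd1, the desaturase that makes monounsaturated fatty acids, was at 4889, 9745 and 7118 CPM against 119.9 and 218 CPM (log2 difference 5.42, SE 0.57, adjusted p = 0.0084). Dgat2, which adds the last fatty acid to triglyceride, was at 671, 1576 and 891 CPM against 14.4 and 38.0 CPM (log2 difference 5.32, SE 0.67, adjusted p = 0.0118). Srebf1 and Acly, an activator of lipogenic genes and the enzyme that supplies cytosolic acetyl-CoA, did not pass. In the list of lipolysis and lipid droplet genes, 11 of 14 were higher in adipocytes (background 7.39%). Among them was Mgll, the lipase of monoglycerides, at 591, 885 and 719 CPM against 119 and 214 CPM. The droplet coat gene Plin2, which lipid-laden macrophages also express, was at 1707, 1932 and 1998 CPM against 1492 and 2518 CPM and overlapped.

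Among the 663 genes that were higher in adipocytes, did not overlap and had enough counts to be ranked, the largest differences were those of Slc5a7, Oxtr, Cdsn, Slc22a3, Npr3, BC034902, Lep, B3galt2, Slc7a10 and Acvr1c, with log2 differences from 6.97 down to 5.63. Npr3, the clearance receptor for natriuretic peptides, was at 330.3, 687 and 498 CPM against 7.67 and 9.57 CPM. Oxtr, the oxytocin receptor, was at 40.7, 121 and 89.7 CPM against 0.715 and 1.29 CPM. Slc7a10 and Slc22a3 encode transporters of small neutral amino acids and of organic cations, and Acvr1c encodes the activin receptor ALK7. Slc5a7, a choline transporter, and Cdsn had 2 counts each in SVC library 212. Apart from Lep and Npr3, these genes had 2 to 27 counts in each SVC library, so their fitted differences rest on few reads there.

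The largest differences toward the SVCs, among 431 such genes, came in part from single libraries. Mup20 was at 201 CPM in SVC library 411, 2.01 CPM in library 212 and 0.355 to 0.971 CPM in adipocytes, and it belongs to a family of near-identical genes among which counting can split reads. The hemoglobin genes Hbb-bs, Hba-a1, Hbb-bt and Hba-a2, which share sequence, and Alas2, the heme synthesis enzyme of red cell precursors, had log2 differences from -5.43 to -5.08, which rested mostly on library 411. Hbb-bs was at 22115 CPM in library 411, 891 CPM in library 212 and 244 to 286 CPM in adipocytes. By share of counts, hemoglobin in SW and LFD SVCs (2.76% to 5.15%) was nearer to library 411 (3.09%) than to library 212 (0.287%). Without library 411 the differences of these 5 genes lay between -2.29 and -1.71, and all still passed. Cd79a, a chain of the B cell receptor, was at 7.21 and 87.0 CPM in SVCs and 1.44 to 2.98 CPM in adipocytes. Tnf, the inflammatory cytokine, was at 94.2 and 7.85 CPM in SVCs and 3.35 to 5.25 CPM in adipocytes, so the excess lay in library 212. Without library 411 the log2 difference of Mup20 was -1.65 (adjusted p = 0.103 by edgeR), and without library 212 that of Tnf was -0.85 (adjusted p = 0.0655), and neither then passed. Meg3, a noncoding RNA, at 103 and 29.3 CPM in SVCs and 2.48 to 8.70 CPM in adipocytes, and Pi16, which marks a class of progenitors, completed the 10.

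**Figure D1:**
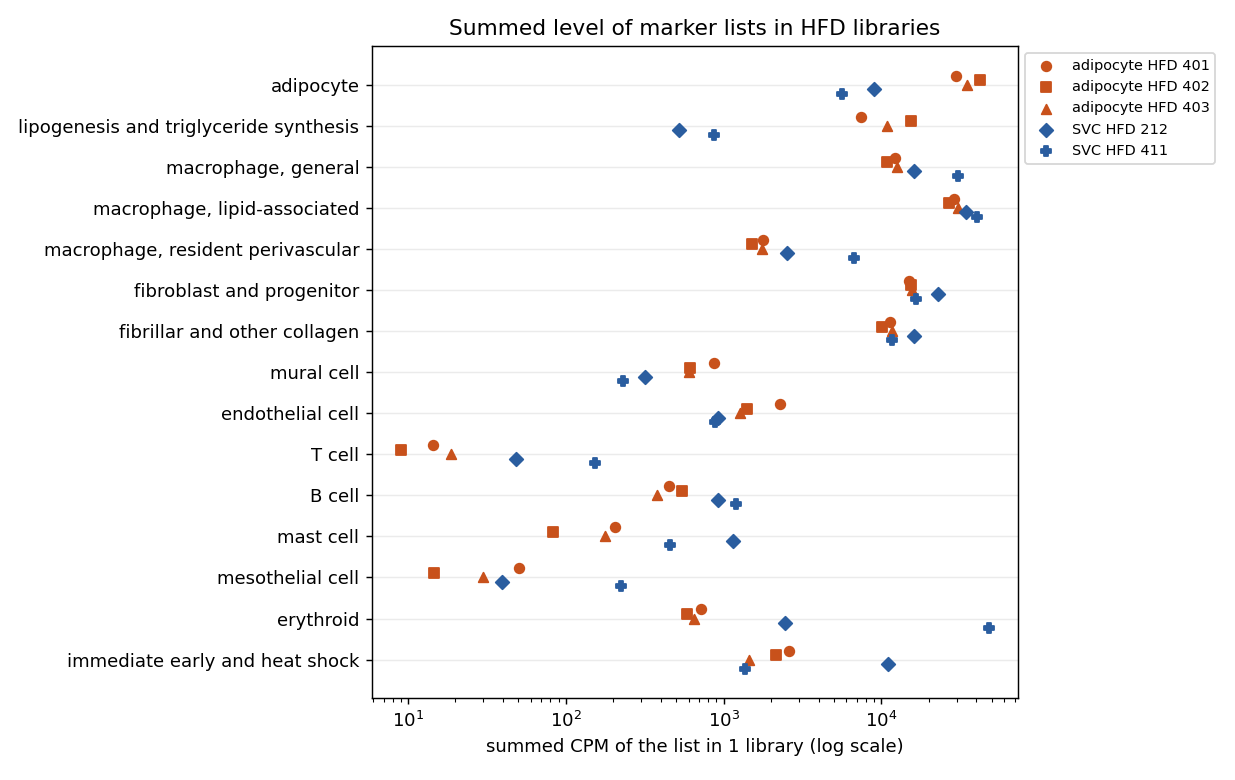
Summed CPM of marker gene lists (log scale) in each of the 5 HFD libraries, with colours for the fractions and a point for each library. The adipocyte list lay between 29584 and 42259.9 CPM in adipocytes and at 9002 and 5639.9 CPM in SVCs, and the T cell list between 9.09 and 18.6 CPM against 48.1 and 152 CPM.

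Lymphocytes, mast cells and red cells marked the sediment. Of 12 T cell genes, 11 were higher in SVCs (background 6.38%), with a median log2 difference of -3.04. Trbc2, a constant segment of the T cell receptor, was at 0.639, 0.399 and 1.31 CPM in adipocytes and 4.61 and 15.9 CPM in SVCs (log2 difference -3.68, SE 0.68, adjusted p = 0.0252). Of 9 B cell genes tested, 6 were higher in SVCs, and of 6 mast cell genes 3 were. Tpsb2, a mast cell tryptase, was at 43.6, 18.1 and 42.0 CPM against 321 and 137 CPM (log2 difference -2.73, SE 0.50, adjusted p = 0.0249), with library 212 the higher of the SVC libraries. All 5 erythroid genes tested were higher in SVCs. Of 8 MHC class II genes, which present antigen on macrophages, dendritic cells and B cells, 5 were higher in SVCs, among them Cd74 at 1855, 1926 and 1994 CPM against 3929.5 and 8607 CPM. No gene of these 5 lists was higher in adipocytes by edgeR, and none was at an unadjusted p under 0.05 in that direction.

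Some vessel cell markers were higher in the floating fraction. Of 10 mural cell genes, which mark pericytes and smooth muscle, 5 were higher in adipocytes (background 7.39%) and 0 in SVCs. Rgs5, a pericyte regulator of G protein signalling, was at 392, 254 and 255 CPM in adipocytes and 92.2 and 44.8 CPM in SVCs (log2 difference 2.13, SE 0.41, adjusted p = 0.027). Of 16 endothelial genes 3 were higher in adipocytes, namely Cdh5, Kdr and Emcn. Cdh5, the endothelial cadherin, was at 379, 204 and 199 CPM against 103 and 78.1 CPM (log2 difference 1.52, SE 0.37, adjusted p = 0.0445), and neither gene overlapped between the fractions. Adipocyte library 401 was the highest for both. Of 5 Schwann cell genes tested, S100b alone was higher in adipocytes, at 4.19, 3.71 and 3.55 CPM against 1.49 and 1.38 CPM.

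By edgeR, most macrophage genes passed the test in neither direction between the fractions. Of 58 tested genes of the 3 macrophage lists, 0 were higher in adipocytes by edgeR, against 7.39% of all genes. In that direction 1 gene, Fabp5, was at an unadjusted p under 0.05, DESeq2 called Fabp5 alone and limma-voom called 0. Toward the SVCs 7 of the 58 passed by edgeR, against 6.38% of all genes, and DESeq2 called 30 and limma-voom 7. All adipocyte libraries lay below both SVC libraries for 34 of the 58 genes (background 25.9%) and above both for 2 (background 29.3%), Fabp5 and Ctsl. The median log2 difference was -0.82 for the general list, -0.09 for the lipid-associated list and -1.67 for the resident perivascular list. A gene is called shared below where it did not pass the test and the 95% confidence interval of its log2 difference lay between -1 and 1. Of the 58 genes 12 were shared, against 26.1% of all genes.

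**Figure D2:**
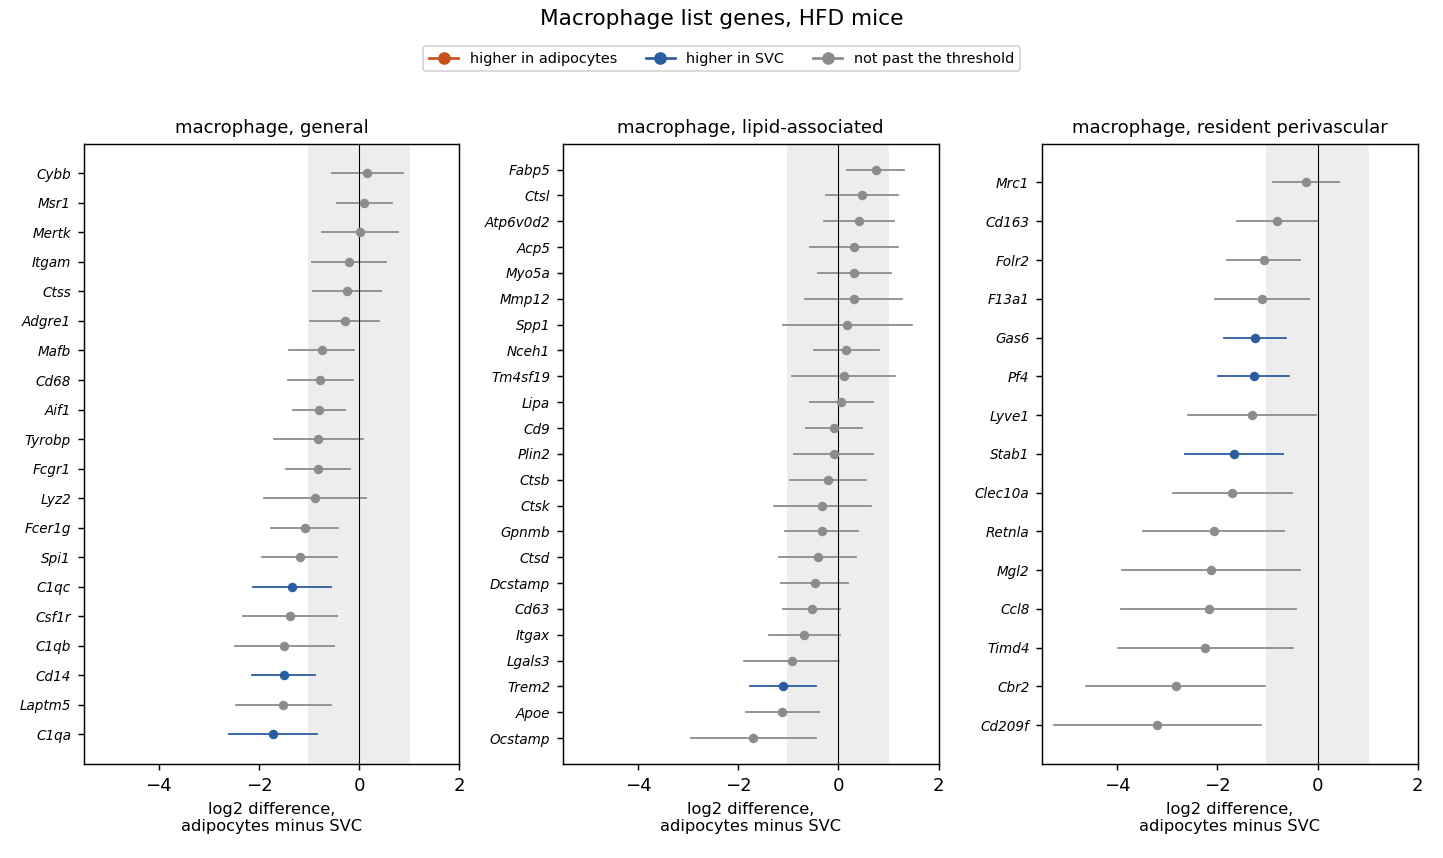
Log2 difference, adipocytes minus SVCs of HFD mice, for the tested genes of the general, lipid-associated and resident perivascular macrophage lists, with 95% confidence intervals and a grey band from -1 to 1. No gene was called higher in adipocytes, and the 7 genes called higher in SVCs lay between -1.71 and -1.10.

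In the general list the shared genes were Adgre1, Ctss, Itgam, Mertk, Msr1 and Cybb. Adgre1 (ENSMUSG00000004730), which encodes the macrophage antigen F4/80, was at 759, 539 and 697 CPM in adipocytes and 679.9 and 948 CPM in SVCs (log2 difference -0.29, 95% confidence interval -0.98 to 0.40), and the groups overlapped. Msr1, a scavenger receptor, also overlapped, at 105, 75.6 and 93.0 CPM against 89.4 and 80.5 CPM (0.10, interval -0.45 to 0.65). Lyz2, the macrophage lysozyme, was at 4297, 4007 and 4406 CPM against 4669 and 10994 CPM, so library 212 lay near the adipocytes and library 411 did not. On the TPM scale, which corrects each library's values for transcript length, the level of Lyz2 was 7756, 6237 and 6919.7 in the adipocyte libraries, above that of Adipoq at 1380.4, 2263 and 1301.

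The general genes that were higher in SVCs were C1qa, C1qc and Cd14. C1qa, a chain of the complement component that binds immune complexes and dying cells, was at 555, 545 and 570.2 CPM in adipocytes and 1137 and 2512 CPM in SVCs (log2 difference -1.71, SE 0.37, adjusted p = 0.0343). Cd14, a coreceptor for lipopolysaccharide, was at 86.7, 80.0 and 68.8 CPM against 271 and 174 CPM (log2 difference -1.50, SE 0.26, adjusted p = 0.0233). Cd68, a lysosomal protein of macrophages, was at 728, 626 and 819 CPM against 1069 and 1409 CPM, and did not pass (adjusted p = 0.0937) although the groups did not overlap. The same held for Csf1r, the receptor of the growth factor on which macrophages depend, at 560.0, 433 and 532 CPM against 782 and 1864 CPM (adjusted p = 0.0603).

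Lipid-associated macrophage genes had the median nearest to 0 of the 3 lists. Of 23 tested, 22 passed in neither direction, and Ctsb, Plin2, Cd9, Lipa and Nceh1 were shared. Lipa, the lysosomal acid lipase, was at 956, 724 and 937 CPM in adipocytes and 809 and 868 CPM in SVCs (log2 difference 0.06, interval -0.57 to 0.68). Gpnmb, a membrane glycoprotein of lipid-laden macrophages, was at 2629, 1887 and 2638 CPM against 3073 and 2944 CPM (-0.34, interval -1.06 to 0.39). Trem2, a lipid receptor, was the member that was higher in SVCs, at 383, 410.2 and 463 CPM against 715 and 1077 CPM (log2 difference -1.10, SE 0.28, adjusted p = 0.047). Mcoln3, a lysosomal channel, was under 1 CPM in all 5 libraries and was not tested.

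Fabp5, a fatty acid carrier that adipocytes also make, had the highest log2 difference of the 3 lists. It was at 548, 626 and 546 CPM in adipocytes and 357 and 325 CPM in SVCs, without overlap (0.75, interval 0.18 to 1.32, adjusted p = 0.0752 by edgeR). For Spp1 (osteopontin) and Mmp12 (macrophage elastase) the SVC libraries lay on both sides of the adipocytes. Spp1 was at 153, 99.4 and 132 CPM against 181 and 46.0 CPM, and Mmp12 at 1251, 984 and 1248 CPM against 1316 and 562 CPM. Without library 212, 6 of the 59 genes then tested were higher in adipocytes (Atp6v0d2, Ctsl, Fabp5, Mmp12, Myo5a and Spp1) and 33 were higher in SVCs. Without library 411 these counts were 0 and 14, and without any 1 of the adipocyte libraries both were 0.

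To show regulatory sequence of genes that marked the floating fraction beside that of macrophage genes that did not, the 250 bases before the RefSeq start (GRCm38.p6) are given for the adipocyte markers Lep and Plin1 and for Mmp12 and Spp1. Capitals mark a C/EBP core (TTGCNNAA) in Lep and Plin1 and a PU.1 core (GAGGAAGT or its reverse complement) in Mmp12 and Spp1. Both strands were searched, and neither motif contains the other. The Mmp12 window also holds a C/EBP core, not marked. C/EBP factors act in adipocytes and in myeloid cells, and PU.1, the product of Spi1, in macrophages and B cells. The C/EBP core was in 9.56% of 32851 windows, 4 of 27 of the adipocyte list, 7 of 28 of the fibroblast and progenitor list and 4 of 25 of the lipid-associated list. The PU.1 core was in 2.44% of all windows, 4 of 25 of the lipid-associated list, 1 of 12 of the general list and 0 of 27 of the adipocyte list. Motifs and genes were picked after the windows had been searched, and a match describes letters, not binding.
Lep (chr6:29059971-29060220, plus strand): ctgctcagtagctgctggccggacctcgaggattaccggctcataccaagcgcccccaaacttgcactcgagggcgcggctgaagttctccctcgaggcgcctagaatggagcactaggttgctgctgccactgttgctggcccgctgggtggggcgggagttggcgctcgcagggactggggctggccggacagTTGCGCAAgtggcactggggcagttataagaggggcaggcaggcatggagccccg
Plin1 (chr7:79732777-79733026, minus strand): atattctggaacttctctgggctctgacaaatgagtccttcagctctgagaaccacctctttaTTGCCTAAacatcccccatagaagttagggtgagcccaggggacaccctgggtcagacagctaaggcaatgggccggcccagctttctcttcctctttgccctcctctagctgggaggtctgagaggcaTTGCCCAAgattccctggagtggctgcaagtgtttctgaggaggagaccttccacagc
Mmp12 (chr9:7344147-7344396, plus strand): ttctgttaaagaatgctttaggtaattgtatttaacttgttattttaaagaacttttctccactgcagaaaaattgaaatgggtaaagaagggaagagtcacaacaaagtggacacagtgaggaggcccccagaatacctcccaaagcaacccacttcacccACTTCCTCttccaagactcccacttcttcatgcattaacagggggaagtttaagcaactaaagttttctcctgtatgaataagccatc
Spp1 (chr5:104434861-104435110, plus strand): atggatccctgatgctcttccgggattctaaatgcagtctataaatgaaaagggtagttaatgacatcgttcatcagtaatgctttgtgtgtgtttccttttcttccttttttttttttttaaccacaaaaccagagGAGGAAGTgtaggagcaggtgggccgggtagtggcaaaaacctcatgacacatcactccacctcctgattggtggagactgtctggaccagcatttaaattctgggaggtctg

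Resident perivascular macrophage genes leaned to the SVCs. All 15 had a negative log2 difference, and Stab1, Gas6 and Pf4 passed. Stab1, a scavenger receptor, was at 343, 194 and 280.4 CPM in adipocytes and 542 and 1192 CPM in SVCs (log2 difference -1.67, SE 0.41, adjusted p = 0.0447). Gas6, a bridging ligand for the uptake of dying cells, was at 166, 133 and 151 CPM against 289 and 426 CPM (log2 difference -1.25, SE 0.26, adjusted p = 0.0315). Among the HFD libraries, some other members were high in library 411 alone. On the scale of all 15 libraries the list summed to 2388 and 6367 CPM in SVC libraries 212 and 411. In SW and LFD SVCs it summed to 6553 to 12835 CPM. Cd209f, a lectin, was at 18.6, 27.8 and 29.5 CPM in adipocytes, 36.6 CPM in library 212 and 429 CPM in library 411. Mrc1, the mannose receptor, was shared, at 393, 242 and 331 CPM against 374 and 383 CPM.

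Because a different amount of macrophage RNA would move all of these genes, each gene was also set against 10 macrophage reference genes of its library. The reference includes a gene of the lists tested, C1qa. In CPM the reference genes had a median log2 difference of -1.27, against -0.81 for the 58 genes. For 8 of the 10, all adipocyte libraries lay below both SVC libraries (background 25.9%). Scaling to them raises genes that lay less toward the SVCs, so the counts of higher and lower genes depend on this choice. On this scale 4104 of the 14743 genes (27.8%) were higher and 169 (1.15%) lower in adipocytes. Of the 58 macrophage genes 6 were higher, all in the lipid-associated list, and 0 were lower by edgeR, with 2 at an unadjusted p under 0.05, 2 called lower by DESeq2 and 0 by limma-voom. The members that were higher were Fabp5 (log2 difference 1.76), the phosphatase gene Acp5 (1.49), the protease gene Ctsl (1.41), Tm4sf19 (1.28), Lipa (1.08) and Plin2 (1.04), with adjusted p-values from 0.0288 to 0.0493. As 6 of 23 lipid-associated genes they stand near the background share, and the list's median, 0.90, lies near that of all genes, 1.01. None passed when any 1 adipocyte library was left out, while 28 macrophage genes were higher and 9 lower without SVC library 212, and 11 higher and 1 lower without library 411.

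Fibroblast and collagen genes leaned to the SVCs, though most did not pass the test. Of 53 genes, 2 were higher in adipocytes (background 7.39%), 7 were higher in SVCs (background 6.38%) and 44 passed in neither direction. All adipocyte libraries lay below both SVC libraries for 24 of the 53 (background 25.9%) and above both for 7 (background 29.3%). The median log2 difference was -0.61 for the fibroblast and progenitor list, with 6 of 36 genes higher in SVCs. It was -0.18 for the collagen list, with 1 of 17. Pi16 and Penk, which mark progenitor states, had the largest differences toward the SVCs. Pi16 was at 45.1, 41.3 and 61.5 CPM in adipocytes and 242 and 723 CPM in SVCs (log2 difference -3.29, SE 0.47, adjusted p = 0.016). Penk was at 30.4, 18.4 and 22.4 CPM against 116 and 81.7 CPM (log2 difference -2.06, SE 0.29, adjusted p = 0.0149). Thy1 and Icam1 are surface proteins of progenitors, Mfap5 a microfibril protein and Tcf21 a transcription factor of visceral progenitors. These genes and Col14a1 had log2 differences between -1.49 and -1.18. None of the 7 genes that were higher in SVCs overlapped.

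Lox and Col12a1 were higher in the floating fraction. Lox (ENSMUSG00000024529), the oxidase that crosslinks collagen and elastin, was at 119, 159 and 151 CPM in adipocytes and 73.0 and 47.4 CPM in SVCs (log2 difference 1.25, SE 0.28, adjusted p = 0.0383). Col12a1 (ENSMUSG00000032332), a collagen that binds to the surface of fibrils, was at 15.5, 24.0 and 19.9 CPM against 6.56 and 7.50 CPM (log2 difference 1.50, SE 0.27, adjusted p = 0.0247). The groups did not overlap for either. Without SVC library 212 or 411 the log2 difference of Lox was 1.61 or 0.95 and that of Col12a1 1.43 or 1.58, and both passed. Neither passed when an adipocyte library was left out, with adjusted p-values from 0.0564 to 0.165. The correction for GC content left Col12a1 alone and that for transcript length left Lox alone.

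**Figure D3:**
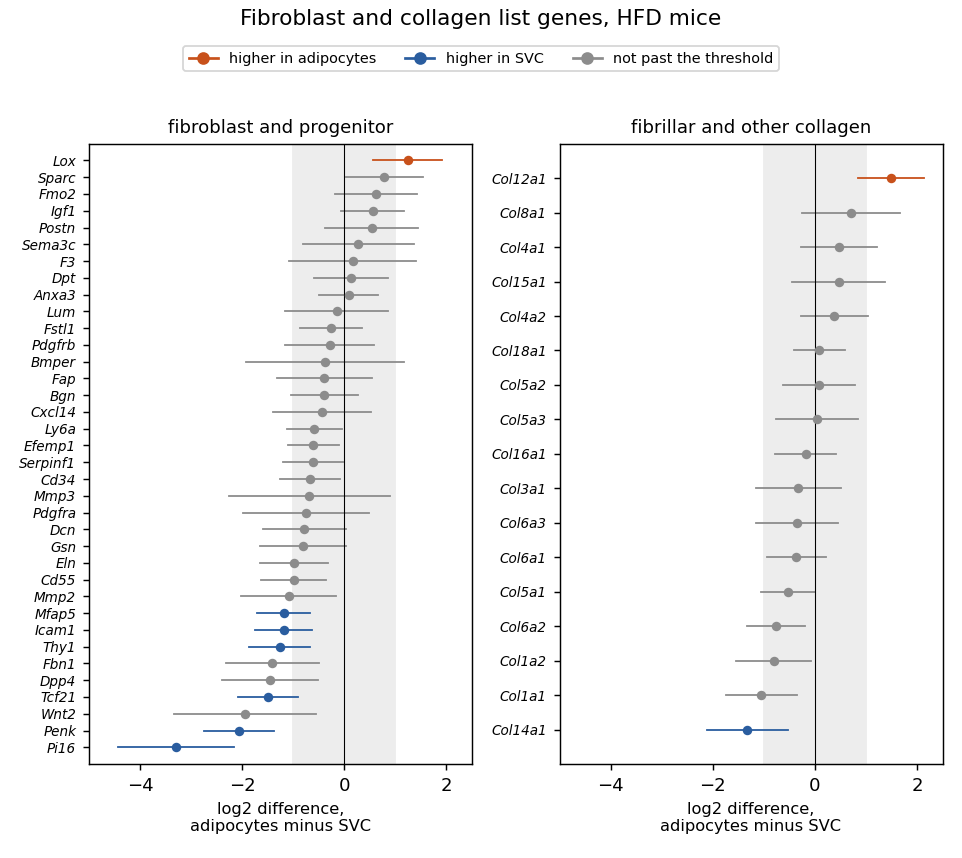
Log2 difference, adipocytes minus SVCs of HFD mice, for the fibroblast and progenitor genes and the collagen genes, with 95% confidence intervals and a grey band from -1 to 1. Lox at 1.25 and Col12a1 at 1.50 were called higher in adipocytes, and 7 genes, with Pi16 at -3.29 the farthest, were called higher in SVCs.

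The shared genes of these lists, 8 of 53 against 26.1% of all genes, were Fstl1, Anxa3, Dpt, Col6a1, Col16a1, Col5a3, Col5a2 and Col18a1. Col6a1, a chain of the microfibrillar collagen around adipocytes, was at 653, 651 and 625 CPM in adipocytes and 905 and 749.5 CPM in SVCs (log2 difference -0.36, interval -0.94 to 0.21). Col18a1, a basement membrane collagen, was at 172, 185 and 177 CPM against 174 and 161 CPM (0.09, interval -0.40 to 0.58). Col1a1, a chain of the main fibrillar collagen, was at 840.4, 649 and 1006 CPM against 1799 and 1638 CPM and did not pass (adjusted p = 0.0569 by edgeR). Pdgfra, the receptor that defines fibroblast-like progenitors, was at 87.9, 44.0 and 75.6 CPM in adipocytes and 178 and 54.4 CPM in SVCs and overlapped. Its log2 difference was -1.39 without library 411 (adjusted p = 0.0367) and 0.37 without library 212 (adjusted p = 0.454), so its direction turned on which SVC library was used.

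Relative to 10 fibroblast reference genes, 2955 of the 14743 genes (20.0%) were higher and 185 (1.25%) lower in adipocytes. Of the 53 fibroblast and collagen genes 3 were higher, Col12a1 at 2.06, Lox at 1.89 and Col8a1, a collagen of vessel walls, at 1.40, and 2 were lower, Pi16 at -2.92 and Penk at -1.47. The share of members that were higher is under the background. In CPM these reference genes had a median log2 difference of -0.76, against -0.39 for the 53 genes, so these counts too depend on the reference. Of 10 mural cell genes 5 were higher in adipocytes in CPM, and their part in the values of Col8a1 and Col12a1 was not tested. None of these calls remained without any 1 of the adipocyte libraries.

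Of 20 tested genes of the vacuolar H+ ATPase, the pump that acidifies lysosomes, 0 were higher in adipocytes by edgeR (background 7.39%), with 2 at an unadjusted p under 0.05. Toward the SVCs 1 passed (background 6.38%). In a list of 20 genes, counts of this size do not set the list apart from all genes. Tcirg1, the a3 subunit of immune cells and osteoclasts, was the member that was higher in SVCs, at 124, 129.6 and 150.4 CPM in adipocytes and 482 and 483 CPM in SVCs (log2 difference -1.84, SE 0.22, adjusted p = 0.0102). Atp6v0a1, the a1 subunit, was at 314, 349 and 365 CPM against 372 and 537 CPM (-0.41, interval -1.03 to 0.21). Atp6v0d2, the d2 subunit of osteoclasts and lipid-associated macrophages, was at 394, 317 and 429 CPM against 349 and 222 CPM (0.41, interval -0.30 to 1.12), and its SVC libraries lay on both sides of adipocyte library 402.

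Fraction differences were smaller in HFD than in SW mice for most genes. The difference between the fraction differences was tested in a fit of the 11 HFD and SW libraries. Of 15949 genes, 1685 (10.6%) had a higher value in HFD mice and 2278 (14.3%) a lower one. The fraction difference had the smaller size in HFD mice for 77.4% of all genes, with a median size of 0.61 in HFD and 1.33 in SW mice on the log2 scale. In the adipocyte list it was smaller for 53.3% of the genes, with a median size of 3.98 in HFD and 3.88 in SW mice. Of the 3963 genes that passed, 861 had fraction differences of opposite sign in HFD and SW mice. The counts were 566 and 853 with the correction for GC content. Zeros also divided the adipocyte libraries by diet. In all, 8 genes had counts in every HFD adipocyte and every LFD and SW SVC library and 0 in the other adipocyte libraries. For 7 genes the reverse held. Both sets had a mean of at least 10 counts where present. SVC library 212 had counts for 5 of the 8 and 4 of the 7, and library 411 for 8 and 0. The part of this division in the HFD and SW values was not tested.

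Collagen genes were mostly among the higher values. Of 17, 14 had a higher value in HFD mice (background 10.6%) and 0 a lower one by edgeR, with 0 at an unadjusted p under 0.05 in that direction. On the scale of all 15 libraries, Col6a1 was at 618, 619 and 599 CPM in HFD adipocytes and 295, 295 and 335 CPM in SW adipocytes. In the sediment it was at 858 and 709 CPM in HFD and 2553, 3541 and 3120.1 CPM in SW mice. The level of Col6a1 was thus higher in the floating fraction and lower in the sediment of HFD than of SW mice, without overlap in either fraction. The log2 fraction difference was -0.36 in HFD and -3.33 in SW mice, a difference of 2.97 (SE 0.29, adjusted p = 0.00243 by edgeR). With the correction for GC content 7 collagen genes passed the threshold.

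**Figure D4:**
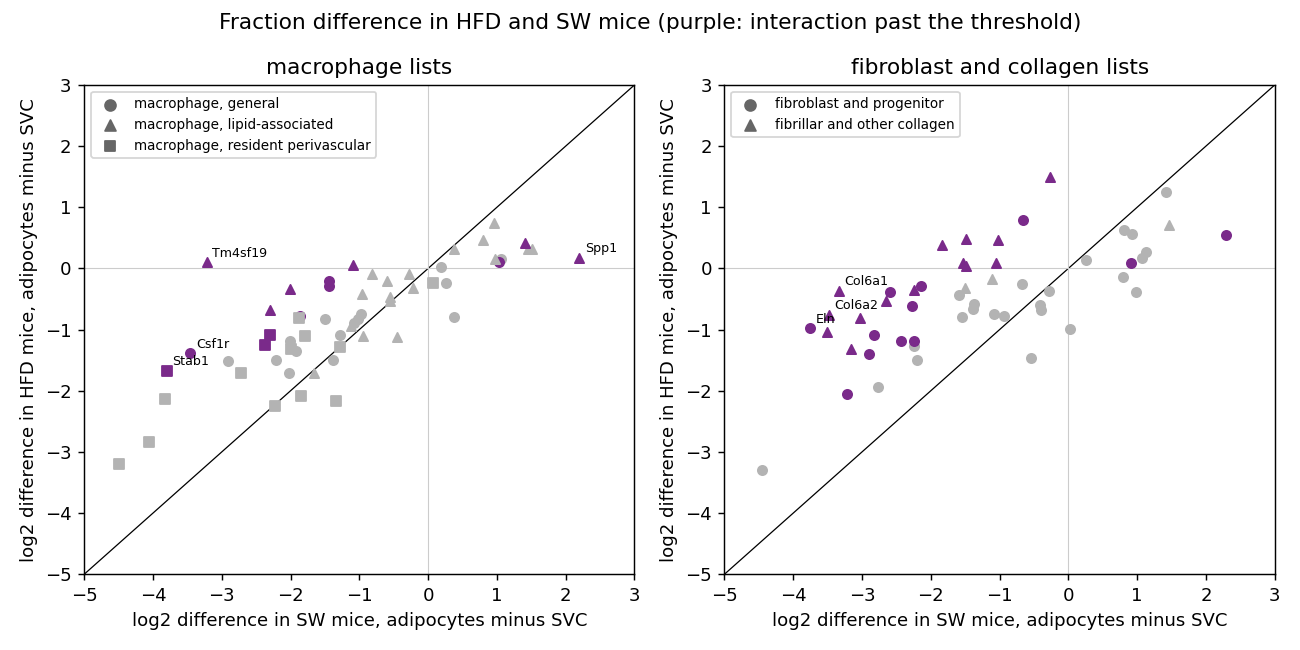
Log2 difference, adipocytes minus SVCs, in HFD mice (5 libraries) against that in SW mice (6 libraries) for the genes of the macrophage lists and of the fibroblast and collagen lists, with the diagonal of equal values and colour for genes whose difference between the diets passed the test. Col6a1, at -0.36 in HFD and -3.33 in SW mice, lies above the diagonal with most collagen genes, and Spp1, with a difference of -2.02, lies below it.

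Macrophage genes went both ways. Of 58, 11 had a higher value in HFD mice and 3 a lower one, against 10.6% and 14.3% of all genes. Adgre1 was at 718, 513 and 667 CPM in HFD and 283, 266 and 259 CPM in SW adipocytes. In SVCs it was at 645 and 897 CPM in HFD and 737, 650.2 and 776 CPM in SW mice, so the diets did not overlap among adipocytes and did among SVCs. The difference of the fraction differences was 1.15 (SE 0.30, adjusted p = 0.0208 by edgeR). Csf1r (2.07), Stab1 (2.12), Gpnmb (1.68) and Tm4sf19 (3.32) also had higher values, and Spp1 (-2.02), Msr1 (-0.92) and Atp6v0d2 lower ones. Atp6v0d2 was at 331 and 209.8 CPM in HFD and 61.6, 91.8 and 69.9 CPM in SW SVCs, and at 373, 301 and 411 and 216, 209 and 178 CPM in adipocytes. Fabp4 of the adipocyte list had a difference of -2.88 (adjusted p = 0.00485), with 1125 and 626 CPM in HFD and 299, 202 and 169 CPM in SW SVCs.

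**Figure D5:**
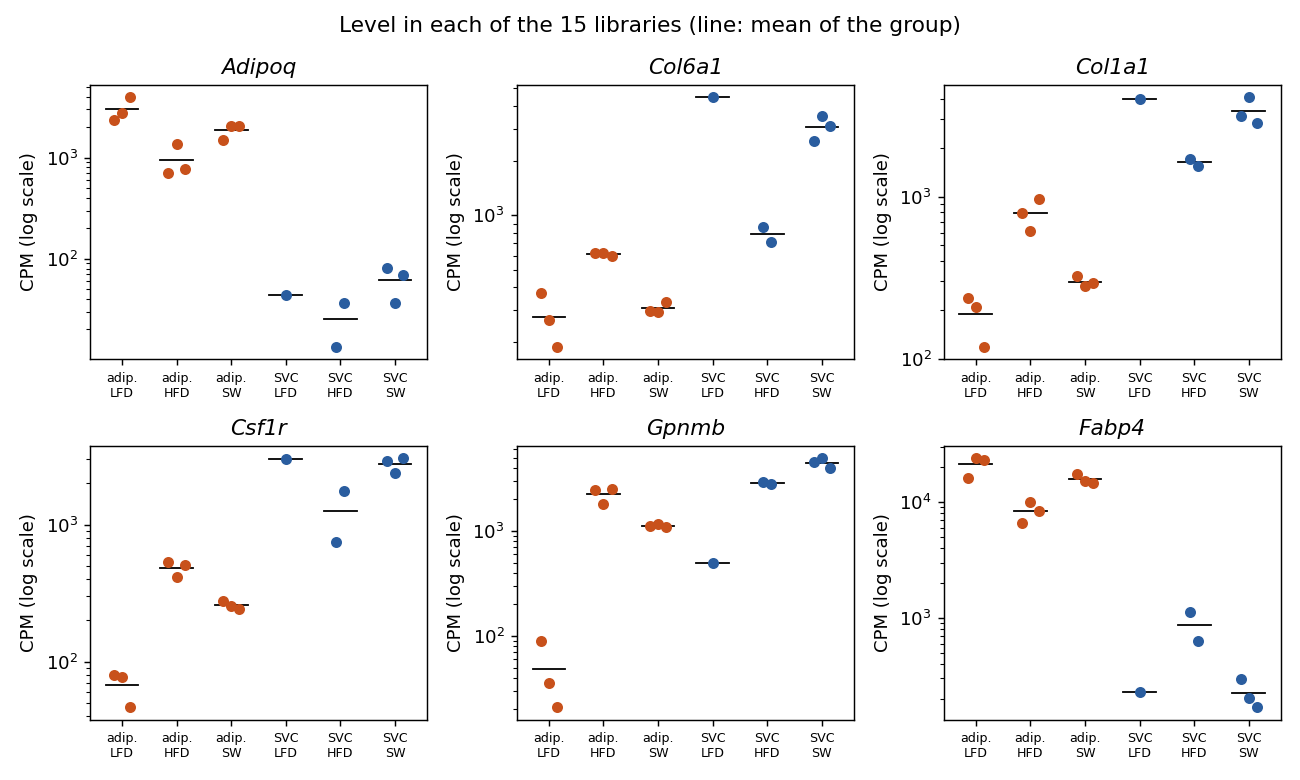
CPM (log scale) of selected genes in each of the 15 libraries, by fraction and diet group, with a point for each library and a line at the mean of each group. Col6a1 lay between 599 and 858 CPM over both fractions of HFD mice, and between 295 and 3541 CPM over those of SW mice.

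For LFD mice only 1 SVC column names its group, and no test was run. Adgre1 was at 31.4, 29.3 and 22.9 CPM in LFD adipocytes and 149 CPM in that SVC library. Gpnmb was at 88.7, 35.5 and 20.9 CPM against 492 CPM. Both genes were thus lower in each fraction than in every HFD library of that fraction. Adipoq was at 2347, 2741 and 3939 CPM in LFD and 710.1, 1358 and 779 CPM in HFD adipocytes.

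Absence was judged against a floor of 3 counts, which allows a level of up to 0.245 CPM in the smallest adipocyte library and 0.229 CPM in the smaller SVC library, for counting error only. Genes with at least 10 counts in every adipocyte library and listed at 0 in both SVC libraries numbered 9, 3 of them annotated pseudogenes. In the other direction there were 2, the beta-defensin genes Defb22 and Defb28. Similar transcripts share reads in such estimates, so zeros of pseudogenes and gene families are uncertain.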

How the data were processed

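RNA of adipocytes and SVCs from epididymal fat was sequenced. The authors mapped reads with Bowtie2 and deposited RSEM estimated counts per gene, whole numbers without normalization. The labels' processing notes name mm9 as the build, and tool versions are not given in the sources used here. Another 3 value columns were not used, because their names match the labels of no group. Whether repeat runs of a library were summed is not stated. The labels list 26 records, and each of the 13 pairs of libraries of 1 group differed by more than counting noise (chi-square per degree of freedom of at least 13.7).

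The tables were joined on 39017 Ensembl identifiers, of which 37693 are in GENCODE M21. Genes passing filterByExpr (minimum count 10) were scaled by TMM factors and tested in R 4.3.3 with edgeR 4.0.16 (robust quasi-likelihood fit, Benjamini-Hochberg adjusted p under 0.05), on the 5 HFD libraries for the fraction difference and on 11 HFD and SW libraries for its difference between diets. For relative values, library size was replaced by the geometric mean of 10 reference genes. CPM use library sizes scaled by TMM factors, over the 5 HFD libraries, or over all 15 libraries where SW or LFD values are compared. TPM used the longest M21 transcript. Exact permutation of 3 against 2 libraries cannot give a two-sided p below 0.2, so it was not used. The fit was tested on simulated data with a common dispersion for all genes and libraries. In the data the SVC pair differed more (chi-square per degree of freedom 408) than the adipocyte pairs (22.0 to 42.1). The simulation does not cover that unequal spread. Promoter windows came from RefSeq (GRCm38.p6).

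Alternatives were DESeq2 1.42.0, limma-voom (limma 3.58.1), RLE and upper-quartile factors, other count filters, thinning, glmTreat, all 15 libraries in the fit, leaving out mitochondrial and hemoglobin genes, GC and length corrections, other reference genes, and leaving out each library. Members and lists were chosen with earlier results of these data known. Genes named are the 10 largest changes per direction past the threshold, without overlap, with mean log2 CPM of at least 4 and at least 10 counts in each library of the higher group (no pseudogenes or genes without a symbol), the macrophage and fibroblast list members that were higher in adipocytes in CPM or relative to their reference, up to 4 abundant members of other lists, and Adipoq, Lep, Plin1, Adgre1, Cd68, Pdgfra, Trem2, Atp6v0d2, Atp6v0a1, Fabp4 and Fabp5. Other genes named were chosen after their values were seen. Tables were read with pandas 2.3.3 and numpy 2.4.6 under Python 3.11.15, and plots drawn with matplotlib 3.10.9.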

Additional observations from a re-analysis of the deposited data

Results flagged for a closer look

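Each value here is a log2 difference, the fraction difference (adipocytes minus SVCs) of HFD mice minus that of SW mice, that passed edgeR's interaction test over 15949 genes at an adjusted p under 0.05. In all, 1685 genes had a higher and 2278 a lower value in HFD mice. No group here holds 4 libraries, so no library was tested for standing far from its group.

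In the macrophage lists these were Adgre1 (1.15), Cd68 (1.09), Csf1r (2.07), Itgam (1.24), Msr1 (-0.92), Spp1 (-2.02), Gpnmb (1.68), Itgax (1.62), Lipa (1.14), Atp6v0d2 (-1.0), Tm4sf19 (3.32), Folr2 (1.22), Gas6 (1.12) and Stab1 (2.12). In the fibroblast and progenitor list they were Pdgfrb (1.86), Mfap5 (1.07), Icam1 (1.24), Mmp2 (1.74), Fbn1 (1.49), Postn (-1.76), Sparc (1.45), Eln (2.78), Bgn (2.21), Serpinf1 (1.66), Penk (1.16) and Anxa3 (-0.81). In the collagen list they were Col1a1 (2.46), Col1a2 (2.22), Col4a1 (1.96), Col4a2 (2.23), Col5a1 (2.13), Col5a2 (1.13), Col5a3 (1.54), Col6a1 (2.97), Col6a2 (2.72), Col6a3 (1.89), Col12a1 (1.76), Col14a1 (1.84), Col15a1 (1.49) and Col18a1 (1.63).

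The size of the fraction difference was smaller in HFD than in SW mice for 14 of 14 of these macrophage genes and for 24 of 26 of the fibroblast and collagen genes, beside 94.2% of all genes that passed. SVC library 411 held 33.5% mitochondrial transcripts against 5.64% to 9.54% in SW SVCs, and its part in these values was not tested.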

How the results depend on the processing

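No paired analysis was possible because the numbers in the columns are in no label. Depth limits genes near the floor of 3 counts, and 2 SVC libraries limit every fraction difference. No named gene and no macrophage, fibroblast or collagen gene called with all 5 libraries was called in the other direction under an alternative. Of those not called, Bmper and Mmp3 were called higher in adipocytes without SVC library 212 and higher in SVCs without library 411, and Mgl2 relative to its reference was called lower without library 212 and higher without library 411. The count of all genes higher in adipocytes, 1090, became 1806 with DESeq2, 216 with glmTreat and 2244 with all 15 libraries, and 74 to 3998 without 1 library. For all genes higher in SVCs, 940 became 2202 with DESeq2, 23 with glmTreat, 2834 with all 15 libraries and 448 with GC correction, and 2 to 4025 without 1 library. For macrophage genes higher in adipocytes, 0 became 1 with DESeq2, 1 with all 15 libraries and 1 with length correction, and 0 to 6 without 1 library. For macrophage genes higher in SVCs, 7 became 30 with DESeq2, 11 with RLE factors, 16 with upper-quartile factors, 14 with no mitochondrial and hemoglobin genes, 12 with no filter, 12 with at least 10 counts in every library, 12 with thinning, 0 with glmTreat, 24 with all 15 libraries, 3 with GC correction and 11 with length correction, and 0 to 33 without 1 library. For fibroblast and collagen genes higher in adipocytes, 2 became 0 with glmTreat, 1 with GC correction and 1 with length correction, and 0 to 15 without 1 library. For fibroblast and collagen genes higher in SVCs, 7 became 23 with DESeq2, 12 with upper-quartile factors, 11 with no mitochondrial and hemoglobin genes, 1 with glmTreat, 18 with all 15 libraries and 13 with length correction, and 0 to 22 without 1 library. For macrophage genes higher relative to their reference, 6 became 12 with DESeq2 and 13 with limma-voom, and 0 to 28 without 1 library. For macrophage genes lower relative to their reference, 0 became 2 with DESeq2, 1 with no filter and 2 with all 15 libraries, and 0 to 9 without 1 library. For fibroblast and collagen genes higher relative to their reference, 3 became 11 with DESeq2, 5 with limma-voom, 12 with all 15 libraries and 5 with GC correction, and 0 to 12 without 1 library. For fibroblast and collagen genes lower relative to their reference, 2 became 4 with all 15 libraries, and 0 to 12 without 1 library. For genes with a higher fraction difference in HFD than in SW mice, 1685 became 566 with GC correction, and 882 to 2963 without 1 library. For genes with a lower one, 2278 became 853 with GC correction, and 1203 to 3259 without 1 library. For collagen genes with a higher one, 14 became 7 with GC correction, and 11 to 15 without 1 library. The cause of these changes was not tested, apart from the glmTreat setting, which asks for a fold above 2, and the settings that leave out a library, which fit fewer libraries.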

Other observations

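Most markers of other leukocytes did not pass the test, but more lay toward the SVCs than toward the adipocytes. At an unadjusted p under 0.05 by edgeR, 8 of 12 monocyte and dendritic cell genes were higher in SVCs. So were 5 of 8 natural killer and innate lymphoid cell genes and 3 of 6 neutrophil genes. In the other direction the counts were 0, 1 and 0. Of all 14743 genes, 2836 lay toward the SVCs at that level and 2624 toward the adipocytes. Of 12 monocyte and dendritic cell genes, 2 were higher in SVCs (background 6.38% of all genes), Plac8 and Ly6c2, a marker of inflammatory monocytes, at 2.41, 2.19 and 2.91 CPM in adipocytes and 6.43 and 25.4 CPM in SVCs (log2 difference -2.66, SE 0.55, adjusted p = 0.0315 by edgeR). Zbtb46, a transcription factor of dendritic cells, was shared, at 18.1, 13.8 and 15.7 CPM against 14.2 and 11.2 CPM. Of 8 natural killer and innate lymphoid cell genes, 2 were higher in SVCs, and of 6 neutrophil genes tested 1 was, Csf3r. Csf3r, the receptor of a neutrophil growth factor, was at 7.52, 5.94 and 6.25 CPM against 13.7 and 23.0 CPM, without overlap.

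Mesothelial genes, which mark the lining of the fat pad, were among HFD libraries mostly highest in library 411. On the scale of all 15 libraries they summed to 37.3 CPM in library 212 and 212.0 CPM in library 411. In SW and LFD SVCs they summed to 194 to 1316 CPM. Upk3b was at 11.1, 3.59 and 6.84 CPM in adipocytes, 8.12 CPM in SVC library 212 and 77.0 CPM in library 411. Of 10 such genes 1 was higher in SVCs (background 6.38%), Wt1, at 3.69, 3.47 and 4.14 CPM against 13.8 and 6.47 CPM. The 13 genes of the mitochondrial genome all overlapped between the fractions, because library 411 lay above and library 212 below or among the adipocyte libraries. Of these genes, 0 were higher in adipocytes and 0 in SVCs by edgeR, with 3 at an unadjusted p under 0.05 toward the SVCs. Of 12 immediate early and heat shock genes, also 0 were higher in SVCs by edgeR, with 6 at an unadjusted p under 0.05. Hspa1a, an inducible heat shock protein, was at 13.1, 10.6 and 7.01 CPM in adipocytes, 488 CPM in library 212 and 13.9 CPM in library 411.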
